A study of Mus musculus with 4 samples.

Results

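Clu, Gata4, Inha, Wt1 and Ctsl are genes used as markers of Sertoli cells, the somatic nurse cells of the seminiferous tubule. Their RNA contacts were followed in cells labelled as mouse spermatogonial stem cells, the self-renewing germ cells from which sperm descend. The 5 genes were taken by name, on either side of a pair, from a table of contacts among 13318 RNAs. They held 72 of its 56636 listed pairs. The contacts were measured by RIC-seq, in which formaldehyde fixes RNA and protein in the cell, a nuclease cuts the RNA, neighbouring ends are joined in place, and joined (chimeric) fragments are sequenced. A count is therefore a number of chimeric reads between 2 RNAs, or between 2 places of 1 RNA.

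The samples were 2 control libraries, labelled as wild type, and 2 libraries with the label differentiation in the field for genotype, all from cells labelled spermatogonial stem cells. The strain, age and origin of the animals, the inducer and the time of differentiation, and any feeder cells are not stated in the labels. No allele or transgene was named for either group. Nothing in the labels says that libraries came from separate cultures, so the p-values cover only library-to-library spread, possibly of technical origin. Library totals ran from 793129 to 1400011 counts. The 5 markers held 1435 and 1871 control counts against 682 and 937 after differentiation. As shares of the library totals these were 0.119% and 0.134% against 0.086% and 0.0811%. Every listed pair had at least 1 count in each library, so pairs missing from any library were not analysed here. Of the germ line markers looked up, 17 of 18 had listed contacts, among them the stem cell genes Gfra1, Zbtb16 and Etv5, and Id4 had none.

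Sertoli cells carry the germ cells through their development, form the blood-testis barrier and supply growth factors such as GDNF and KIT ligand. WT1 and GATA4 are transcription factors that direct formation of the gonad and keep the Sertoli cell in its identity. Inhibin alpha, the product of Inha, is secreted by Sertoli cells and restrains the release of follicle-stimulating hormone by the pituitary. Clusterin, the product of Clu, is a secreted chaperone and a major Sertoli cell glycoprotein. Cathepsin L, the product of Ctsl, is a lysosomal protease that Sertoli cells release in stages of the seminiferous cycle, and many other cells make it too.

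The summed contacts of 4 of the 5 markers fell with differentiation, and those of Ctsl did not pass the test. The log2 changes were −1.26 for Clu, −1.002 for Gata4, −3.11 for Inha and −0.53 for Wt1. Among all 10993 RNAs with counts enough for the test, 6.75% were called lower and 5.44% higher, and the median change was −0.00071. Both differentiation libraries lay below both controls for those 4 markers and above them for Ctsl, where 26.2% of all 13318 RNAs lay below and 24.7% above. A contact total is the sum of all listed pairs of an RNA, scaled to counts per 1e6 counts (CPM), and a call is an adjusted p under 0.05 in edgeR's quasi-likelihood test. In such bulk libraries fewer cells of a type, less RNA per cell and fewer contacts per RNA molecule cannot be told apart.

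Clu lies on chromosome 14 at 65968483 to 65981548 (all positions are GRCm38.p6). Its contact total was 230 and 244 CPM in the controls against 110.1 and 89.1 CPM after differentiation. Both differentiation libraries lay well below both controls. The fall was 2.38-fold, from 237 ± 10.3 to 99.6 ± 14.9 CPM (SD, n = 2; log2 change −1.26, SE 0.18, edgeR adjusted p = 0.00106).

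Gata4, on chromosome 14 at 63198914 to 63271712, had contact totals of 137 and 176 CPM in the controls and 93.0 and 65.3 CPM after differentiation. The groups did not overlap, but the replicates of each were spread more widely than those of Clu. The means were 157 ± 27.7 and 79.1 ± 19.5 CPM (SD, n = 2), a 1.98-fold fall (log2 change −1.002, SE 0.22, edgeR adjusted p = 0.0126).

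Wt1, on chromosome 2 at 105126529 to 105173614, had the largest counts of the 5. Its contact totals were 415 and 477 CPM in the controls against 307 and 308 CPM after differentiation. The latter were nearly equal and both lay below the controls. The fall was the shallowest of the 4, from 446 ± 43.96 to 308 ± 0.601 CPM (SD, n = 2; 1.45-fold; log2 change −0.53, SE 0.15, edgeR adjusted p = 0.0418).

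Inha, on chromosome 1 at 75507077 to 75510366, had 17 and 16 control counts against 1 and 2 after differentiation. These were 9.84 and 8.06 CPM against 0.815 and 1.08 CPM. All of them came from a single listed pair, so the fall of Inha is that of 1 contact. Differentiation held 3 counts where a listed pair cannot have fewer than 2. Control exceeded differentiation 9.12 times, with a 95% exact counting interval of 2.86 to 46.5 (log2 change −3.11, SE 0.70, edgeR adjusted p = 0.0140).

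Ctsl, on chromosome 13 at 64361890 to 64370772, had contact totals of 38.8 and 36.8 CPM in the controls and 44.8 and 42.1 CPM after differentiation. Both differentiation libraries were slightly above both controls. Means of 37.8 ± 1.41 and 43.5 ± 1.94 CPM (SD, n = 2) gave a log2 change of 0.20 with an SE of 0.24 (edgeR adjusted p = 0.652).

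**Figure D1:**
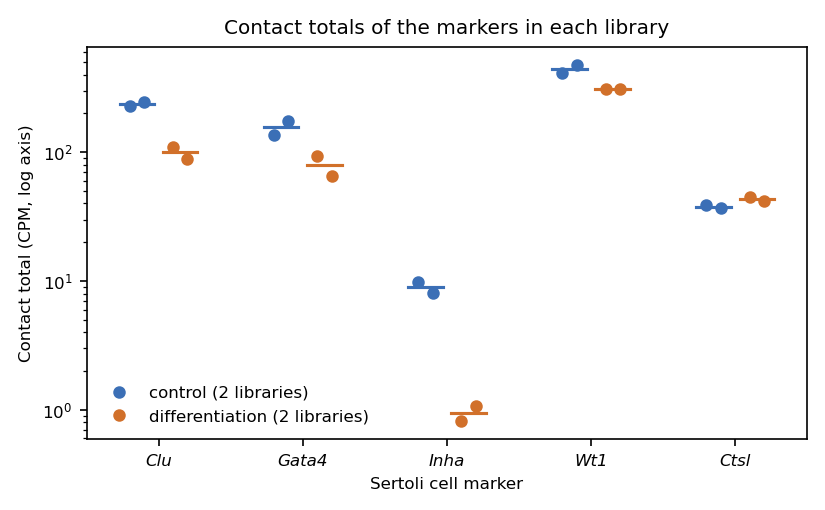
Contact totals of the 5 markers in CPM on a log axis; each point is 1 library and each bar the mean of the 2 libraries of a group. Clu, Gata4, Inha and Wt1 are lower in both differentiation libraries, from 237 to 99.6 CPM for Clu and from 8.95 to 0.948 CPM for Inha, and Ctsl is at 37.8 and 43.5 CPM.

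The counts of a marker over those of Ctsl in the same library do not depend on the scaling. There were 5.93 and 6.64 Clu counts for each Ctsl count in the controls, against 2.45 and 2.12 after differentiation. For Gata4 the ratios were 3.54 and 4.79 against 2.07 and 1.55, and for Wt1 they were 10.7 and 12.97 against 6.85 and 7.32. Inha had 0.254 and 0.219 counts per Ctsl count in the controls and 0.0182 and 0.0256 afterwards. Since Ctsl was above and the 4 others below their controls, the order of these ratios follows from the totals and is no separate support.

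Per kb of gene span, introns included, the control level was highest for Clu at 18.1 CPM per kb, followed by Wt1 at 9.47, Ctsl at 4.25, Inha at 2.72 and Gata4 at 2.15. In single control libraries Inha was at 2.99 and 2.45 CPM per kb and Gata4 at 1.88 and 2.42, which differed by little more than their spread. After differentiation Clu (8.42 and 6.82 CPM per kb in its libraries) and Wt1 (6.53 and 6.55) lay close together, and Inha came last at 0.288. Transcript lengths were not used here.

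Leaving out either control library ended most or all of these calls. Without control 1 the call of Clu held, and those of Gata4 (edgeR adjusted p = 0.0735), Inha (0.103) and Wt1 (0.173) were lost. Without control 2 none of the 4 passed, with adjusted p of 0.0657 for Clu, 0.2504 for Gata4, 0.101 for Inha and 0.413 for Wt1. Without either differentiation library all 4 stayed called. Wt1 was also lost with RLE scaling (0.0611) and with column totals (0.178).

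The contacts themselves were spread over few partners. Wt1 had 26 listed pairs, Clu 21, Gata4 18, Ctsl 6 and Inha 1, and no pair joined 2 of the markers. Wt1 was the only one with a listed contact within its own RNA. The 71 other pairs reached 43 partners. Of these 29 met a single marker, and only Slc9a9, the RNA of a sodium-proton exchanger, met all 5. Gm42418, Gm26917, Gm23935 and Shroom3, an actin-binding protein RNA, each met Clu, Gata4, Wt1 and Ctsl. These are RNAs with very many partners in the table: Gm42418 had 8422, Slc9a9 7833, Gm26917 7584, Shroom3 3043 and Gm23935 2134.

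Most between-RNA counts of the markers joined hub RNAs. In the controls Gm42418, Gm26917 and Slc9a9 together held 62.3% ± 0.506 of the between-RNA counts of Clu (SD, n = 2), 58.4% ± 3.85 of those of Gata4, 58.9% ± 2.89 of those of Wt1 and 89.3% ± 0.361 of those of Ctsl. Inha was contacted by Slc9a9 alone. With Gm23935, Shroom3, the Mediator kinase RNA Cdk8, Malat1 and Neat1 added, the share was 86.4% ± 0.32 for Clu, 76.4% ± 3.05 for Gata4 and 84.1% ± 0.466 for Wt1, and all of Ctsl. Over all between-RNA counts of the table these 8 RNAs took part in 72.7% ± 3.57 in the controls and 61.7% ± 5.32 after differentiation. This share covers pairs that join hubs to each other too, so it is not a share per RNA like those of the markers. The differentiation shares of the markers were 78.6% ± 1.14 for Clu, 75.2% ± 3.45 for Gata4 and 74.8% ± 8.79 for Wt1.

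Over all 72 marker pairs, tested or not, both differentiation libraries lay below both controls in 26 (36.1%) and above them in 8. Among all listed pairs the shares were 20.3% below and 24.2% above. By marker the pairs below numbered 9 of 21 for Clu, 7 of 18 for Gata4, 8 of 26 for Wt1, 1 of 6 for Ctsl and the single pair of Inha. Counts sufficed for the test in 36 of the 72, and edgeR called 4 lower and 0 higher. Of all tested pairs 2.4% were called lower and 2.85% higher. At an unadjusted p under 0.05, 10 marker pairs were lower and 1 higher, where 9.75% and 10.9% of all tested pairs were. The 36 others had at most 19 counts over the 4 libraries.

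Clu with Malat1, the long noncoding RNA of nuclear speckles, fell from 35.4 and 37.3 CPM to 11.4 and 4.79 CPM. The groups lay far apart, though the differentiation values rest on 8 and 5 counts. On the scale of the pair fit the change was −2.24 (SE 0.50, edgeR adjusted p = 0.0145), a ratio of means of 4.498. Malat1 itself fell by 1.09 in its contact total, and the other 1486 tested Malat1 pairs had a median change of −0.87. Of the Malat1 pairs 6.05% were called lower, and of those other than the Clu pair 6.06% had a steeper change than the pair with Clu. The call was lost without control 2 (edgeR adjusted p = 0.0540) and without differentiation 2 (0.0893).

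Clu with Gm42418, its partner of largest summed count, fell from 83.4 and 97.6 CPM to 38.4 and 33.5 CPM. Counts were 99 and 136 in the controls against 27 and 35, and the groups did not overlap. The change was −1.34 (SE 0.31, edgeR adjusted p = 0.0170). Of the Gm42418 pairs 1.04% were called lower. The other tested pairs of Gm42418 had a median change of 0.05, and 4.68% of them lay below the pair with Clu. Without control 2 the pair was not called (edgeR adjusted p = 0.180).

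Inha with Slc9a9 was 14.3 and 11.5 CPM in the controls and 1.42 and 1.92 CPM after differentiation. The change was −2.83 on the pair scale (SE 0.77, edgeR adjusted p = 0.0398), with a counting ratio of 7.45 (2.34 to 37.96). The same 36 counts gave −3.11 as the contact total, because the scaling of pairs and that of totals differed by 0.28 between the groups. Of the Slc9a9 pairs 0.61% were called lower. Among the other tested Slc9a9 pairs the median was 0.03, and 0.0841% changed more steeply downward. Leaving out any 1 of the 4 libraries ended this call, with edgeR adjusted p from 0.0625 to 0.104.

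Wt1 with Neat1, the RNA that builds paraspeckles, fell from 21.9 and 18.7 CPM to 5.69 and 1.92 CPM, on 26 and 26 counts against 4 and 2. The change was −2.49 (SE 0.64, edgeR adjusted p = 0.0310). Neat1 pairs fell widely: 33.5% of the 801 tested were called lower, and their median change without the Wt1 pair was −1.99. The call was kept without differentiation 1 and lost without control 1 (edgeR adjusted p = 0.0966), control 2 (0.0652) or differentiation 2 (0.196), and with DESeq2 (0.0683). Without the Neat1 pairs the contact total of Wt1 changed by −0.50 (edgeR adjusted p = 0.0674).

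**Figure D2:**
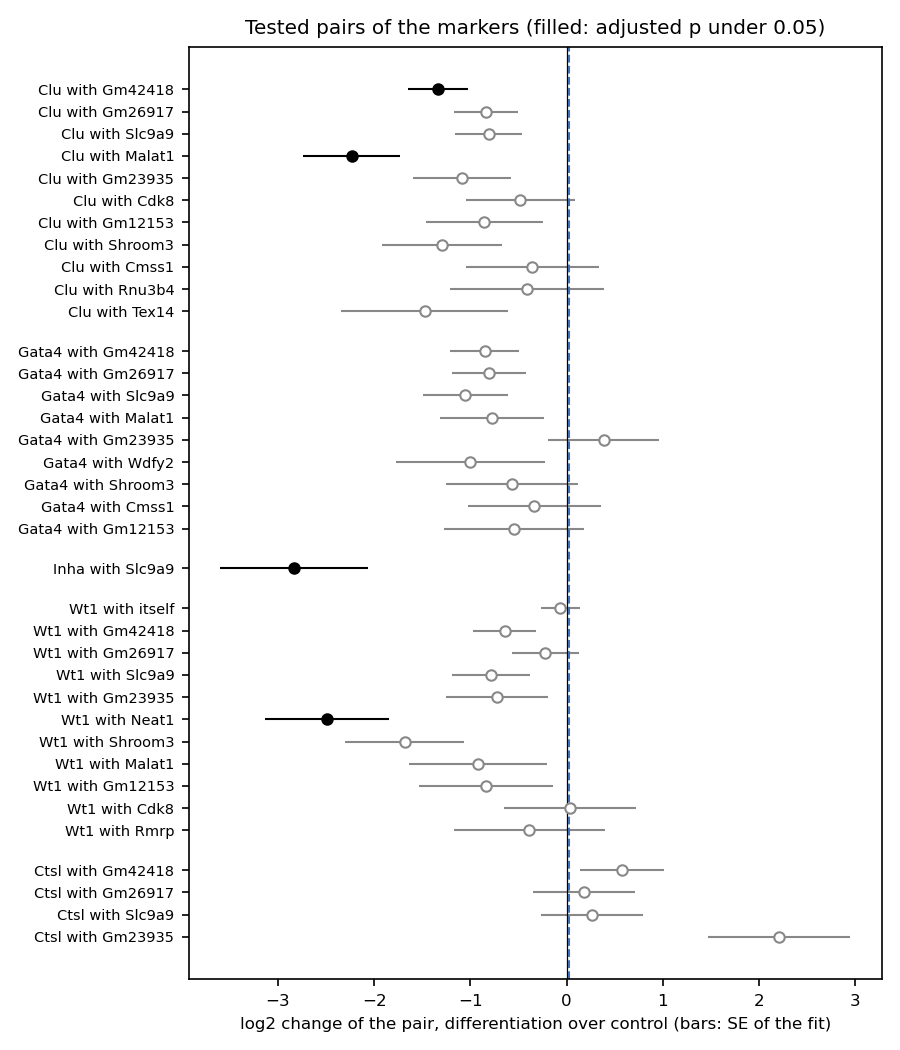
Log2 change (differentiation over control) of the 36 marker pairs with counts enough for the test, ordered within each marker by summed count; bars are the SE of the fit, filled points passed an adjusted p under 0.05, and the dashed line is the median of all tested pairs. The filled points are Clu with Malat1 (−2.24), Clu with Gm42418 (−1.34), Inha with Slc9a9 (−2.83) and Wt1 with Neat1 (−2.49).

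Wt1 had contacts within its own RNA as well as with other RNAs. Within Wt1 there were 351 and 406 CPM in the controls and 364 and 360 CPM after differentiation, so the groups overlapped. The change was −0.06 (SE 0.20, edgeR adjusted p = 0.908). Within-RNA counts made up 58.9% ± 1.24 of the Wt1 total in the controls and 66.9% ± 1.45 after differentiation (SD, n = 2). Both differentiation libraries had the higher share, and the exact two-sided permutation p was 0.333, the smallest that 2 against 2 libraries can give, so a change of the share is not shown. Summed over between-RNA pairs only, the Wt1 total changed by −0.67 (SE 0.17, edgeR adjusted p = 0.0174). That fit has its own scaling, in which the Inha counts changed by −2.94 where the pair fit gave −2.83, and the within and between changes were not tested against each other.

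The remaining large Wt1 pairs had negative estimates that did not pass. They were −0.65 with Gm42418, −0.22 with Gm26917, −0.79 with Slc9a9, −0.72 with Gm23935 and −1.68 with Shroom3. The pair with Shroom3 was 15.2 and 15.1 CPM in the controls and 5.69 and 3.83 CPM after differentiation, with groups apart (edgeR adjusted p = 0.127). Only 2.51% of the other Shroom3 pairs lay below it. Wt1os, a noncoding RNA whose gene ends 0.018 kb before the start of Wt1, had 2 and 8 contact counts with Wt1 in the controls and 2 and 1 afterwards, too few for the test. The libraries were strand-specific per the labels, and whether the counting used the strand is not stated in the labels.

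Gata4 had no called pair, although its total fell. With Gm42418 it went from 49.7 and 60.3 CPM to 36.96 and 24.9 CPM (log2 change −0.85, edgeR adjusted p = 0.182), and with Slc9a9 from 26.97 and 35.9 to 11.4 and 18.2 CPM (−1.05, 0.186). The pair with Gm26917 changed by −0.80 (edgeR adjusted p = 0.249). All 3 pairs had both differentiation libraries below both controls, as did 20.3% of all listed pairs. With Malat1 the estimate was −0.78 and with Gm23935 0.38, both with overlapping groups, where the medians of the other pairs of these RNAs were −0.87 and 0.37. With 1 library left out these estimates ran from −1.81 (without differentiation 1) to −0.07 (without differentiation 2) for Malat1 and from 0.10 (without control 1) to 0.77 (without control 2) for Gm23935. Wdfy2, an endosomal protein gene 237 kb from Gata4 on the same chromosome, contacted it with 21 and 6 counts in the controls and 6 and 3 after differentiation (−1.002, edgeR adjusted p = 0.514). Gata4 had the same counts, 4, 13, 1 and 1, with Rock1 and with the small nuclear RNA Gm26244, whose genes overlap, so these may be the same reads.

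The other large pairs of Clu had negative estimates and were not called. These were −0.84 with Gm26917, −0.81 with Slc9a9, −1.09 with Gm23935 and −0.48 with Cdk8, at edgeR adjusted p of 0.157, 0.192, 0.237 and 0.708. In the first 3 both differentiation libraries lay below both controls, as in 20.3% of all listed pairs. Clu pairs with Tex14, a germ cell bridge gene, and with the U3 small nucleolar RNA Rnu3b4, whose genes overlap, held 16 and 18 counts, and their reads may not be separable. Ccdc25, the nearest listed partner gene at 102 kb from Clu, had 1 and 1 counts in the controls and 2 and 2 afterwards.

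Ctsl had positive estimates with the same hub RNAs. They were 0.58 with Gm42418, 0.18 with Gm26917 and 0.26 with Slc9a9, with overlapping groups and edgeR adjusted p of 0.502, 0.9004 and 0.849. Its contact with Gm23935 was 1.69 and 2.15 CPM in the controls and 12.8 and 6.70 CPM after differentiation, on 2 and 3 counts against 9 and 7. That is an estimate of 2.21 (SE 0.74, edgeR adjusted p = 0.0919), with groups apart, and 97.2% of the other Gm23935 pairs lay below it.

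**Figure D3:**
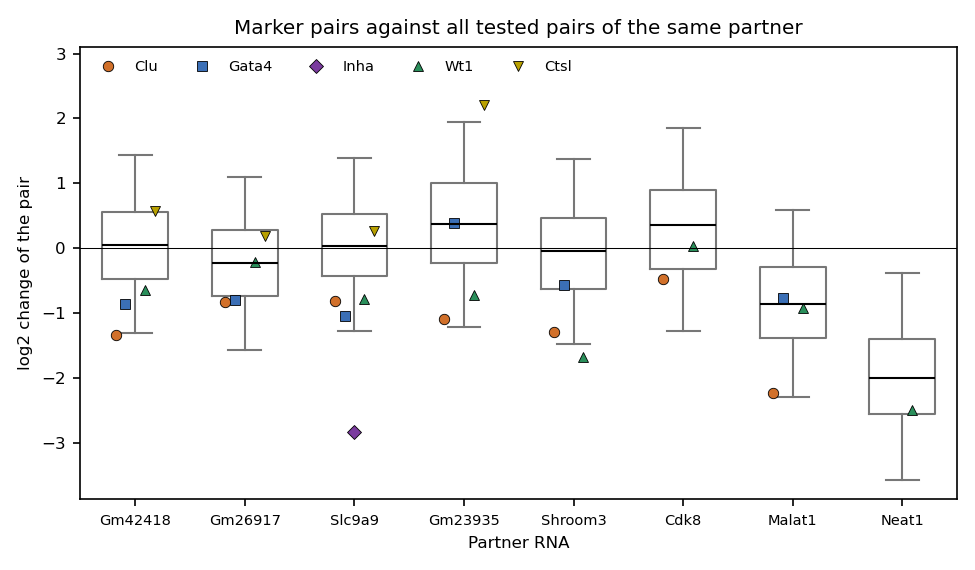
Log2 change of the marker pairs (coloured symbols) with each of 8 partner RNAs, over boxes for all tested pairs of that partner (quartiles, with whiskers from the 5th to the 95th percentile). Clu with Gm42418 (−1.34), Inha with Slc9a9 (−2.83) and Wt1 with Shroom3 (−1.68) lie below the whiskers, Ctsl with Gm23935 (2.21) lies above them, and the Neat1 pair of Wt1 (−2.49) lies inside its box.

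Dependence on the hub RNAs was looked at by leaving their pairs out. Without Gm42418 and Gm26917 the change of Clu was −1.23 (edgeR adjusted p = 0.00516) and that of Gata4 −0.999 (0.0351), and Wt1 was no longer called (−0.57, 0.0626). Without Slc9a9 nothing of Inha remained, Clu (−1.30) and Gata4 (−0.96) stayed called, and Wt1 did not (0.0562). With the pairs of all 8 hubs left out, Clu changed by −0.80 (edgeR adjusted p = 0.209), Gata4 by −1.09 (0.103) and Wt1 by −0.53 (0.107), and Inha and Ctsl could not be tested.

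The RNAs whose contact totals over the 4 libraries ran most like those of a marker were found by the distance between centred log2 profiles, among RNAs of like level. For Clu they were Hs6st2, Kdm7a and Tbl1x, at distances of 0.031, 0.054 and 0.059 where the median of 1518 candidates was 1.28. For Gata4 they were Kcp, Rpl23a and Klf13 (0.104 to 0.151), for Wt1 Gas5, Inpp5a and Actn4 (0.0351 to 0.0785), for Inha Acaa2, Tha1 and Doc2b (0.349 to 0.522), and for Ctsl Tagln, Usp54 and Usp46 (0.0523 to 0.0734). With 4 libraries many RNAs can share such a profile.

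Among 32 other Sertoli cell genes, 22 had listed contacts and 20 were tested. Of these 5 fell, 1 rose and 14 did not pass, where 6.75% of all RNAs tested were called lower and 5.44% higher, with a median of −0.60 where that of all RNAs tested was −0.00071. Tjp1, a tight-junction scaffold gene, was 499.9 and 489 CPM in the controls and 187 and 209.5 CPM after differentiation (log2 change −1.32, SE 0.15, edgeR adjusted p = 3.11e-04). Cldn11, the claudin of the blood-testis barrier, went from 137 and 140.03 CPM to 56.3 and 57.8 CPM (−1.28, SE 0.19, 0.00125). Mro, the maestro gene of the male gonad, fell 4.51-fold, from 27.2 and 21.7 to 6.52 and 4.32 CPM (−2.19, SE 0.43, edgeR adjusted p = 0.00644). In all 3 genes the groups stood well apart. Without Gm42418 and Gm26917 pairs Cldn11 changed by −0.82 (edgeR adjusted p = 0.0698) and Mro could not be tested, and without the 8 hubs Cldn11 changed by −0.84 (0.437).

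Kitl, which encodes the KIT ligand, fell from 249 and 292 CPM to 130 and 157 CPM (−0.91, SE 0.17, edgeR adjusted p = 0.00592), and the adhesion gene Cdh2 fell by 0.59 (SE 0.16, edgeR adjusted p = 0.0311). Over between-RNA pairs only neither was called (Kitl −0.35, edgeR adjusted p = 0.270; Cdh2 −0.42, 0.118). Tuba3a, an alpha-tubulin gene, rose from 179 and 177 CPM to 360 and 443 CPM (1.18, SE 0.16, edgeR adjusted p = 9.93e-04). Without control 1 only Tjp1 and Cldn11 stayed called, and without control 2 only Tjp1 (edgeR adjusted p = 0.0328).

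Several defining Sertoli genes had negative estimates that did not pass. These were −0.57 for the sex-determining factor Sox9 (edgeR adjusted p = 0.145), −0.64 for Sox8, −0.86 for the AMH receptor Amhr2, −1.35 for the FSH receptor Fshr and −1.505 for the growth factor Gdnf. Fshr and Gdnf rest on 21 and 32 counts. The gap-junction gene Gja1 (−0.88), the activin subunit gene Inhbb (−0.61), Fgf2 (−0.38), Nr5a1 (−0.31), Aard (−0.21), Vim (−0.19) and Krt18 (−0.17) did not pass, nor did the actin-bundling gene Espn (0.16). Both differentiation libraries lay below both controls for Sox9, Sox8, Amhr2, Fshr, Gdnf, Gja1, Fgf2, Aard and Vim, as for 26.2% of all RNAs. Amh, Trf, Rhox5, Rhox8, Cst9, Cst12, Ptgds, Nr0b1, Hsd17b1 and Shbg had no listed pair and were not analysed here.

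Genes that act with the markers were counted from lists by function. Of 12 tested transcription factors of the gonad 3 fell and 0 rose, where 6.75% of all RNAs tested were called lower. They were Gata4 and Wt1, already counted among the markers, and Zfpm2, which encodes FOG2, the cofactor of GATA4. Zfpm2 went from 1081 and 1218 CPM to 465 and 448 CPM (−1.33, SE 0.15, edgeR adjusted p = 2.44e-04), and it stayed called without any 1 of the 4 libraries. In the activin and inhibin pathway all 15 genes were tested and 3 fell, the marker Inha, the activin antagonist Fst (−1.37, SE 0.21, edgeR adjusted p = 0.00166) and the receptor gene Acvr1 (−0.61, 0.0241). Inhba, which encodes the other activin subunit, was at 0.01 (0.993). Fst and Acvr1 lost their calls without control 1 or control 2.

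Of 14 tested lysosomal genes, the group of Ctsl, 1 was called lower, a share near the 6.75% of all RNAs tested, and the median was 0.06. It was the membrane protein gene Lamp2 (−1.14, SE 0.25, edgeR adjusted p = 0.0127). Lamp2 lost its call without Gm42418 and Gm26917 pairs (0.0986) and without control 1 (0.0874) or control 2 (0.249). Among 8 tested genes listed for clusterin, its receptors and regulators, Clu alone was called, and the endocytic receptor genes Lrp1 (−0.21) and Lrp8 (0.16) were not. Estimates were negative for 6 of the 8, Clu included, with a median of −0.61.

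Markers of other cell types moved in the same libraries, where 6.75% of all RNAs tested were called lower and 5.44% higher. Of 13 tested fibroblast and feeder genes 6 fell and 1 rose, among them Fbn1 (−1.39), Pdgfrb (−1.34), Col3a1 (−1.20) and Tnc (1.21). Estimates were negative for 12 of the 13, with a median of −0.77. The summed level of the list was 2459 to 2745 CPM in the controls and 2241 to 2335 CPM after differentiation. This sum includes the rise of Tnc, from 321 and 271 CPM in the controls to 670 and 694 CPM after differentiation. Of 16 tested germ cell genes 5 rose and 1 fell. The meiotic genes Sycp1 (2.83) and Dmc1 (1.87) and the piRNA genes Tdrd9 (2.17) and Mov10l1 (1.39) rose with Tdrd5 (1.61). The stem cell receptor gene Gfra1 fell by 1.20. The other 10 did not pass, among them Kit (−0.19), Stra8 (0.40), Zbtb16 (−0.69) and Etv5 (−1.30). The germ cell list summed to 4173 to 4526 and 4471 to 4759 CPM, most of it from Tex14, whose gene overlaps Rnu3b4. Tex14 was at 3716 and 4064 CPM in the controls and 3971 and 3511 CPM after differentiation (log2 change −0.06). That sum therefore says little about the other germ cell genes. The 5 Sertoli markers summed to 830 to 942 CPM in the controls and 506 to 556 CPM after differentiation, and the 22 other Sertoli genes to 2471 to 2576 and 1848 to 2004 CPM. The part of cell mixture in these changes was not tested.

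None of the 5 peritubular genes was called, where 6.75% of all RNAs tested were called lower and 5.44% higher. Acta2 was at −0.11 (0.05 under column totals) and Myh11 at 0.16. The estimate of Acta2 was the only negative one of the 5, and their median was 0.18. The list summed to 229 to 232 CPM in the controls and 240.2 to 249 CPM after differentiation. Of 9 Leydig cell genes 3 had listed contacts, among them Cyp11a1 (−0.997), and none was called, the list summing to 68.0 to 74.1 and 48.6 to 50.6 CPM. Cyp17a1, Hsd3b1, Hsd3b6, Insl3, Lhcgr and Hsd17b3 had no listed pair. Macrophage genes were few, with 3 of 8 listed and only Itgam tested (1.58, edgeR adjusted p = 0.293; −1.72 without differentiation 1). Of 6 endothelial genes 4 were listed and 3 tested, with Cdh5 at −0.51 and Flt1 at −0.04 (0.11 under column totals), and Kdr and Vwf had no listed pair.

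**Figure D4:**
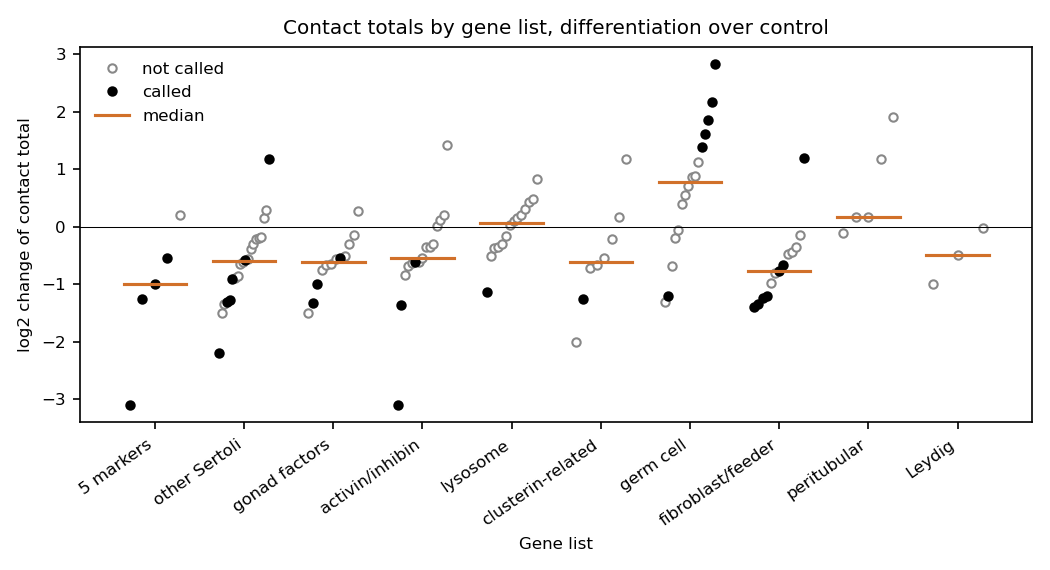
Log2 change of the contact totals of the tested genes in 10 lists; each point is 1 RNA, filled where the adjusted p was under 0.05, and the bar is the median of the list. The 5 markers have a median of −1.002, the other Sertoli genes −0.60, the lysosomal genes 0.06, the germ cell genes 0.79 and the fibroblast and feeder genes −0.77.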

How the data were processed

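Per the file headers and values, the authors deposited 1 table of whole-number counts of chimeric reads per RNA pair and library, with no normalization. The submitters' processing notes name STAR and GRCm38 only. How chimeric reads, duplicates, strand and overlapping genes were handled is not given in the sources used here. Pairs, and the contact totals of all RNAs, were each tested with edgeR 4.0.16 in R 4.3.3 (quasi-likelihood F test, TMM scaling, filterByExpr with minimum count 5 and total 10, two-sided, Benjamini-Hochberg over all features tested, threshold 0.05). A between-RNA pair enters 2 totals. CPM values use the scaled library sizes, and the biological coefficient of variation was 24.9% for pairs and 18.7% for totals. Both fits were tested on simulated data whose changes were larger than those of the contact totals of Clu, Gata4 and Wt1. That test does not bear on changes of their size. Intervals cover counting error only, since molecular identifiers are not mentioned in the labels. Positions come from a RefSeq table of GRCm38.p6, in which 12030 of 13318 names matched a symbol.

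The markers and gene lists were chosen with earlier results of these data known. The rule named the 5 markers, their called, within-RNA and up to 6 largest other pairs, every tested gene of the other Sertoli list, up to 4 called (or 2 largest tested) genes of each other list, and the 3 nearest profiles. Some genes that the rule names are not reported here. Gfra1, Tdrd5, Zbtb16, Etv5, Kit, Stra8, Inhba and the contact total of Tex14 lie outside that rule. So do pairs named for overlapping or neighbouring genes (Rock1, Tex14, Rnu3b4, Ccdc25, Wt1os). All of these were picked with their values in view.

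The alternatives tried comprised RLE scaling, no filter, column totals, the default filter (10 and 15), the replicate number as a block, DESeq2 1.42.0, pairs of identical counts kept once, between-RNA pairs only, no Neat1 pairs, no Gm42418 and Gm26917 pairs, and each library left out over the same features. Leaving out Slc9a9 pairs, or those of 8 hubs, was chosen after seeing the data.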

Additional observations from a re-analysis of the deposited data

How the results depend on the processing

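The 4 markers called lower became 2 without Slc9a9 pairs and 0 without the pairs of 8 hub RNAs, alternatives chosen after seeing the data, and 0 to 4 when 1 library was left out. The 4 marker pairs called lower became 2 with DESeq2 and 0 to 3 with 1 library left out. Of the other Sertoli genes 5 were called lower, against 3 over between-RNA pairs only, 3 without Gm42418 and Gm26917 pairs, 2 without the 8 hubs and 1 to 5 with 1 library left out, and the 1 called higher became 0 to 1. A left-out library leaves a lone one that is assumed to vary like the other group. DESeq2 gave no adjusted p for Inha. Leaving out hub pairs also leaves fewer counts.

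With the replicate number as a block, the calls of the 5 markers and their pairs were 4 and 4 as before, while RNAs of the whole table called higher went from 598 to 942 and lower from 742 to 977. The labels do not say that the numbers pair libraries, and the replicate differences of the groups correlated by 0.0219 over pairs and 0.139 over totals, so the samples share only a number.

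Over all RNAs, column totals gave 458 lower and 780 higher, against 742 and 598, and shifted the median of totals by 0.16. Pairs called lower and higher became 1003 and 626 under column totals, against 760 and 902, with the median shifted by −0.14, and DESeq2 called 433 pairs higher. Without the 8 hubs 435 RNAs were lower and 248 higher. Leaving out 1 library gave 83 to 1022 lower and 46 to 1081 higher RNAs, and 345 to 1079 lower and 298 to 1454 higher pairs.

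Of 928 values for 68 genes and pairs under the alternatives, 848 kept direction and side of the threshold, 60 lost the call, 2 gained one and 18 changed sign, none of them a called value. With 1 library left out, estimates spanned −0.85 to 0.69 for Ctsl with Gm26917, −0.22 to 0.56 for Ctsl with Slc9a9, −1.87 to 0.28 for Gata4 with Wdfy2, −0.17 to 0.0497 within Wt1 and −0.61 to 0.0487 for Wt1 with Gm26917. They spanned −0.60 to 0.0397 for Nr5a1, −1.57 to 0.0842 for Inhbb, −0.50 to 0.29 for Krt18, −0.00494 to 0.34 for Lrp8, −1.72 to 2.59 for Itgam, −1.19 to −0.07 for Cdh5 and −0.63 to 0.67 for Flt1. Without Gm42418 and Gm26917 pairs Vim was 0.0616. Over between-RNA pairs only Fgf2 was 0.14, Acta2 0.0627 and Flt1 0.31, and under column totals Acta2 was 0.0542 and Flt1 0.11. The causes were not tested.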
